A study of Homo sapiens with 5 samples.

Results

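Intergenic peaks of histone H2A lysine 130 acetylation (H2A-K130ac) that lay less than 50 kb from a transcription start site were compared between C4-2B cells treated with abiraterone and C4-2B cells treated with Romidepsin. A peak was taken when its annotation was Distal Intergenic and its absolute distance to the nearest start site was below 50000 bp. The rule took 27162 of 159204 annotated peaks, namely 10667 of 67806 in the abiraterone list and 16495 of 91398 in the Romidepsin list. The nearest of them lay 3004 bp from a start site with abiraterone and 3002 bp with Romidepsin, and the farthest lay at 49993 and 49989 bp, while the first intergenic peak outside the limit lay at 50000 bp in each list. The label held against the coordinates for nearly all of them, since the midpoints of 16 abiraterone and 28 Romidepsin peaks fell in a listed transcript or its flanks.

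C4-2B is a castration-resistant prostate cancer cell line derived from LNCaP, although the sample labels describe it as breast cancer. Abiraterone blocks CYP17A1, the enzyme that makes androgen precursors, and Romidepsin inhibits class I histone deacetylases. Each agent had 1 chromatin immunoprecipitation library with a peak list, and the sample titles alone name the agent, because the treatment protocol in the labels is written for VCaP cells. The lists are named as called over input, whereas the study's methods give the vehicle-treated sample as the control, so each fold is over a control that is not settled here. No list from untreated C4-2B cells was analysed here, so the lists were set beside each other and not beside a control. With 1 library for each treatment no test between the treatments was possible, and every interval given here is a 95% interval that covers counting error only.

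Sequence between genes holds many of the enhancers that act on start sites from a distance, and acetylated histones mark such elements when they are active. Transcription factors of development, among them homeobox genes, often stand alone in wide stretches of such sequence. Acetyl groups are set by acetyltransferases such as KAT2A and removed by deacetylases such as HDAC1, the kind of enzyme that Romidepsin inhibits. In sterol metabolism the protein INSIG1 holds the SREBF precursors in the endoplasmic reticulum when sterol is plentiful, and its own gene is a target of these factors.

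Peak positions are in hg19 coordinates, and since no sequence of that build was at hand the peaks themselves are given by position only. The RefSeq promoter of INSIG1 is shown because this gene was among those with the most Romidepsin peaks. It is the 250 bases before the start, chr7:155297628-155297877 on the plus strand of GRCh38.p14. At this gene the abiraterone list had 1 promoter peak, 853 bp upstream of the start and so outside the stretch shown, and the Romidepsin list had 0. Capitals mark CACGTG, a palindromic E-box found by a search of both strands, with its first base 55 bases before the start.
INSIG1 promoter: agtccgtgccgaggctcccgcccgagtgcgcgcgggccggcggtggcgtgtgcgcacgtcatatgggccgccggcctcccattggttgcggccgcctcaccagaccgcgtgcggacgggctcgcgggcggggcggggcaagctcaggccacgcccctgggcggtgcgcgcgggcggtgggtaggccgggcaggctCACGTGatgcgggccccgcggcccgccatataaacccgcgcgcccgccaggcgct
The motif CACGTG occurred in 7.26% of 35116 RefSeq promoters, each of 250 bases before and 50 bases after the start. The letters TCACNCCAC, one form of the sterol response element, occurred in 1.13% of the promoters and not in this stretch.

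MicroRNA genes, host transcripts of the same name included, were nearest to 401 abiraterone and 652 Romidepsin peaks. The mature RNAs of those with the most peaks, and of MIR365A, which had 1 of the 5 Romidepsin peaks of highest fold, are shown with the seed, bases 2 to 8, in capitals. RefSeq gave mature sequences for 275 of the 322 such genes, and MIR205HG, a host transcript with 8 Romidepsin and 3 abiraterone peaks, is named only.
hsa-miR-365a-3p: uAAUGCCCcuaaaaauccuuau
hsa-miR-365a-5p: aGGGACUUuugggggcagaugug
hsa-miR-138-5p: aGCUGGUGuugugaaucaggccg
hsa-miR-138-1-3p: gCUACUUCacaacaccagggcc
hsa-miR-5197-5p: cAAUGGCAcaaacucauucuuga
hsa-miR-5197-3p: aAGAAGAGacugagucaucgaau
hsa-miR-548x-3p: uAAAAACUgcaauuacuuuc
hsa-miR-548x-5p: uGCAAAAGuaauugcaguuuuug
hsa-miR-583: cAAAGAGGaaggucccauuac
hsa-miR-3659: uGAGUGUUgucuacgagggca
No seed was shared among these RNAs. MIR138-1, whose product is abundant in brain, had 9 Romidepsin peaks and 0 abiraterone peaks, and MIR5197 had 8 and 5. MIR548X had 7 abiraterone and 6 Romidepsin peaks, MIR583 had 7 and 2, and MIR3659 had 6 and 7. The lead of either list at a microRNA gene was thus a matter of a few peaks, and the direction differed from gene to gene.

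The Romidepsin list held 1.55 peaks for each abiraterone peak in this stretch of sequence, against 1.27 farther out at 50 to 500 kb. The direction turned with the q-value. Among peaks near genes with a −log10 q of 2 or more the abiraterone list was the larger, 2653 peaks against 407. That was 86.7% (85.4 to 87.9) of the pool. Over all peaks the counts were 16900 and 2495, so the turn was not particular to peaks near genes. At a minimum of 1.9 the counts near genes were 2668 and 1847, so its size depended on the limit. As a share of the peaks pooled over the lists, abiraterone peaks made up 39.3% (38.7 to 39.9) within 50 kb and 44.0% (43.5 to 44.5) at 50 to 500 kb. The share was 38.9% at promoters, 43.7% in introns and 49.0% in intergenic sequence beyond 500 kb, and 42.6% over all peaks. Intergenic peaks near genes thus resembled promoter peaks in how the lists divided, with overlapping intervals, and differed from intergenic peaks farther away by more than counting error. The odds of a peak coming from the abiraterone list were 0.824 times (0.799 to 0.85) those at 50 to 500 kb.

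Inside 50 kb the division of the lists hardly moved with distance. The abiraterone share was 38.9% (36.7 to 41.1) at 3 to 5 kb, 37.9% at 5 to 10 kb and 39.9% at 10 to 20 kb. It was 38.8% at 20 to 30 kb, 39.6% at 30 to 40 kb and 40.1% (38.5 to 41.7) at 40 to 50 kb. The intervals of the nearest and the farthest step overlapped. Upstream peaks came from the abiraterone list in 39.5% (38.8 to 40.2) and downstream peaks in 38.7% (37.6 to 39.8), which was also within counting error.

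The lower abiraterone share near genes was present chromosome by chromosome. It was below the share at 50 to 500 kb on 23 of 23 chromosomes, by 0.279 percentage points on chromosome 19 and by 10.6 points on chromosome 21. Comparing peaks only within the same chromosome left the odds at 0.825 (0.799 to 0.851). Comparing only within the same 5 Mb of a chromosome moved them to 0.895 (0.865 to 0.927), and within the same 1 Mb to 0.941 (0.904 to 0.979), so that the difference between near and far peaks was smaller among neighbours. These windows were chosen after the values were seen.

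**Figure D1:**
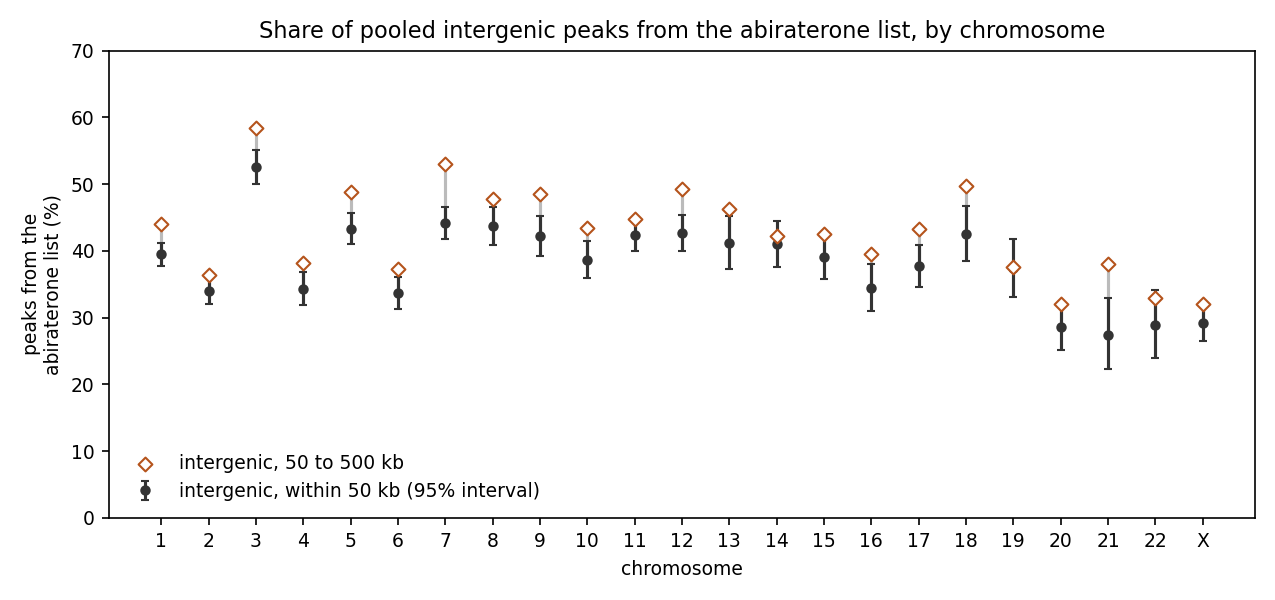
Share of pooled intergenic peaks that came from the abiraterone list (vertical axis, percent) on each chromosome (horizontal axis). Filled points with 95% intervals are peaks within 50 kb of a start site and open diamonds are those at 50 to 500 kb. Diamonds lie above the points on all 23 chromosomes, and the points run from 27.4% on chromosome 21 to 52.6% on chromosome 3.

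The plot of shares by chromosome shows that chromosomes differed far more than distances did. Chromosome 3 was the only one on which abiraterone peaks near genes outnumbered Romidepsin peaks, 824 against 743. On chromosome 20 the counts were 188 and 470, and on chromosome X they were 345 and 839.

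Density was taken as peaks per Mb of intergenic sequence at the same distance, since more sequence lies close to start sites than far from them. In all, 564.5 Mb of intergenic sequence lay within 50 kb of a start site of the 18406 genes that were nearest to a peak. The abiraterone list had 18.9 peaks per Mb (18.5 to 19.3) there and 20.8 (20.5 to 21.1) at 50 to 500 kb. The Romidepsin list had 29.2 (28.8 to 29.7) and 26.5 (26.2 to 26.9). The density near genes over that farther out was 0.908 (0.886 to 0.93) with abiraterone and 1.10 (1.08 to 1.12) with Romidepsin. With the genes of each list alone it was 1.01 (0.986 to 1.03) and 1.11 (1.09 to 1.13), so the lower abiraterone density near genes was lost and the higher Romidepsin density was not.

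Within 50 kb the density was nearly flat from 10 kb outward. Romidepsin peaks stood at 34.4 per Mb (32.4 to 36.4) at 3 to 5 kb and 32.04 at 5 to 10 kb, then between 27.6 and 28.8 in the 4 steps from 10 to 50 kb. Abiraterone peaks stood at 21.9 per Mb (20.3 to 23.5) at 3 to 5 kb, 19.6 at 5 to 10 kb and between 18.1 and 19.0 farther out. The density at 3 to 10 kb over that at 40 to 50 kb was 1.08 (1.01 to 1.15) with abiraterone and 1.17 (1.11 to 1.23) with Romidepsin. This ratio depends on which genes are counted, because only genes nearest to some peak have limits in the lists. With the fewer genes of each list alone it was 1.62 and 1.36, in that order. Genes to which no peak was nearest were not counted, and the ratio over all genes was not computed.

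**Figure D2:**
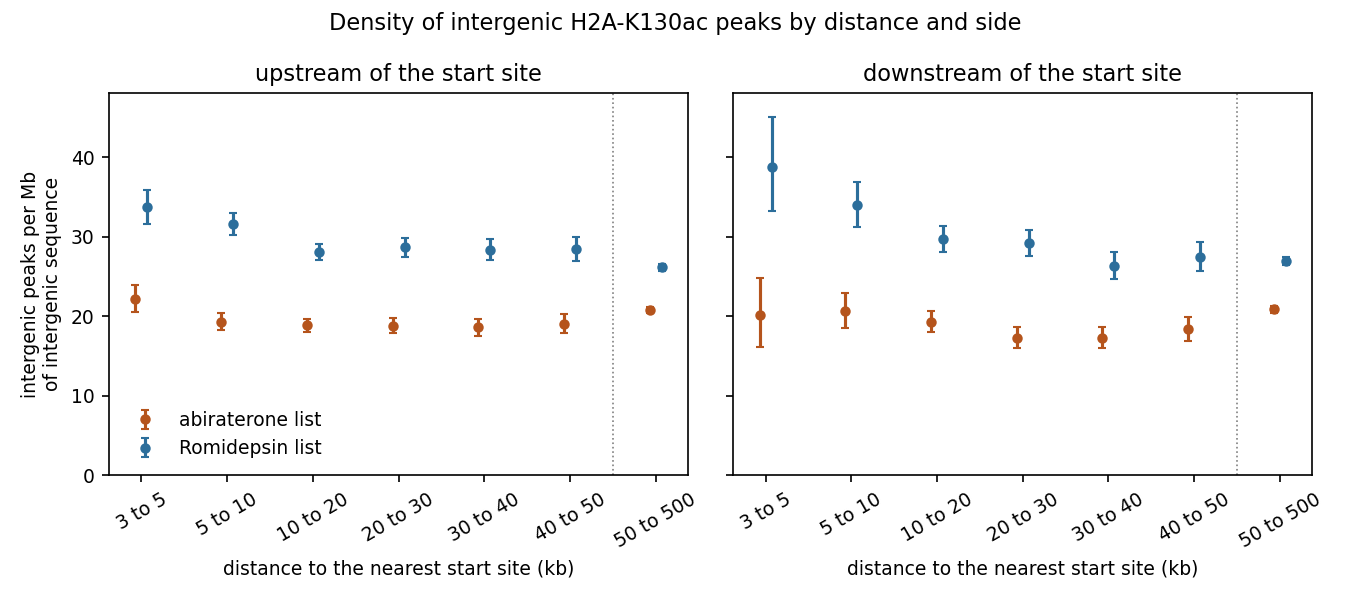
Intergenic peaks per Mb of intergenic sequence (vertical axis) by distance to the nearest start site in kb (horizontal axis), upstream on the left and downstream on the right, with exact Poisson 95% intervals. Orange points are the abiraterone list and blue points the Romidepsin list, and the step right of the dotted line is 50 to 500 kb. The lists lie closest together in that last step on both sides.

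Distances themselves were alike. The median distance was 20580 bp (20134 to 20994) with abiraterone and 20423 bp (20154 to 20760) with Romidepsin. Within 10 kb lay 2357 abiraterone peaks, 22.1% (21.3 to 22.9), and 3812 Romidepsin peaks, 23.1% (22.5 to 23.8), against 20.6% of the sequence.

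Most peaks lay upstream of the nearest start site, in the proportion in which the sequence lay there. Upstream were 7517 abiraterone peaks, 70.5% (69.6 to 71.3), and 11504 Romidepsin peaks, 69.7% (69.0 to 70.4), while 69.6% of the intergenic sequence within 50 kb was upstream. The lower bound with abiraterone came to the share of the sequence, and no side was favoured by more than counting error over all these peaks. Other settings differed. Among peaks with a −log10 q of 2 or more the upstream shares were 71.5% (69.8 to 73.3) and 74.7% (70.2 to 78.8), above the share of the sequence, while with 1 peak per gene and side the Romidepsin share was 67.5% (66.6 to 68.5), below it. The upstream share of the sequence fell from 86.9% at 3 to 5 kb to 61.0% at 40 to 50 kb, because a position downstream of a start site close by is mostly inside the gene. Transcripts next to downstream peaks were short. The transcript had a median length of 6553 bp for downstream and 36407 bp for upstream abiraterone peaks, and of 6379 and 32587 bp with Romidepsin. Downstream peaks lay a median of 12820 bp past the end of the transcript with abiraterone and 12381 bp with Romidepsin.

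The strands of the neighbouring genes made no difference that exceeded counting error with abiraterone. Between divergent genes lay 32.6% of abiraterone and 31.6% (30.8 to 32.3) of Romidepsin peaks, against 32.4% of the sequence. Between genes on the same strand lay 51.7% and 52.3%, against 51.5%, and between convergent genes 15.6% and 16.1%, against 16.02%. The interval of the Romidepsin share in divergent gaps ended just below the share of the sequence, and with gene limits of the Romidepsin list alone it was 32.3% (31.6 to 33.03) against 33.3% of the sequence so limited.

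Densities were also compared by class of the nearest gene. Developmental transcription factors, taken as symbols of the SOX, FOX, PAX, HOX, GATA, NKX, IRX, TBX, LHX and sine oculis homeobox families, had 35.7 Romidepsin peaks per Mb (30.6 to 41.4), above the 29.2 of all nearest genes. Their 18.8 abiraterone peaks per Mb (15.1 to 23.1) were close to the 18.9 of all. At least 1 Romidepsin peak lay within 50 kb of 62.3% of the 114 such genes (52.7 to 71.2), against 43.6% of all 18406 genes, and at least 1 abiraterone peak near 42.1% (32.9 to 51.7), against 31.9%. These shares of genes were not adjusted for sequence. The 114 genes had 4.85 Mb of intergenic sequence and all 18406 genes 564.5 Mb, which is more per gene for the class. Per Mb, abiraterone peaks were not more frequent there. NKX2-5, which directs heart development, and TBX15, a factor of limb and skeletal development, each had 8 Romidepsin peaks, with 5 and 4 abiraterone peaks. IRX3, an Iroquois homeobox gene, had 7 and 0, and GATA5 had 7 and 1. Abiraterone peaks made up 34.5% (28.8 to 40.5) of the pool at these factors, an interval that held the 39.3% of all. LHX2 and TBX3 went the other way, with 4 abiraterone peaks each and 3 and 2 Romidepsin peaks.

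Olfactory receptor genes lie in large tandem clusters and are mostly silent outside sensory neurons. They were the only class with a higher density in the abiraterone list, by less than counting error. They had 18.7 abiraterone peaks per Mb (16.03 to 21.6) and 18.0 Romidepsin peaks per Mb (15.5 to 20.9), from 180 and 174 peaks. Abiraterone peaks made up 50.8% of the pool (45.5 to 56.2), against 39.3% of all intergenic peaks within 50 kb. The trait was not particular to this class, since small nucleolar RNAs had a similar share, 48.3% (37.6 to 59.2). The density intervals of the lists also overlapped for small nucleolar RNAs, keratin-associated genes and defensins. For olfactory receptors the share by chromosome was as follows. The share was 56.8% (41.0 to 71.7) on chromosome 1, 49.0% (40.7 to 57.3) on chromosome 11 and 50.9% (42.9 to 58.9) on the remaining chromosomes. On chromosome 11 the peaks near other genes had 41.8% (39.3 to 44.3).

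Genes named ZNF, mostly KRAB zinc finger repressors, had fewer peaks per Mb than all nearest genes, 14.02 (12.1 to 16.2) with abiraterone and 19.6 (17.2 to 22.1) with Romidepsin. Densities of classes were not compared within chromosomes. Chromosome 19 had the lowest density of any chromosome in each list, 8.02 and 13.4 per Mb. Whether the level of the ZNF genes is particular to the class or shared by their chromosomes was not tested. Long intergenic RNAs named LINC had many in either list, 23.1 (21.2 to 25.02) and 34.96 (32.7 to 37.3). MicroRNA genes, with 18.3 and 29.7, stood near the level of all genes. Small nucleolar RNAs had 18.5 (13.4 to 24.9) and 19.8 (14.5 to 26.4), with only 1 of 43 and 1 of 46 peaks upstream, although 30.5% of their sequence was upstream. How the classes came to differ was not tested.

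**Figure D3:**
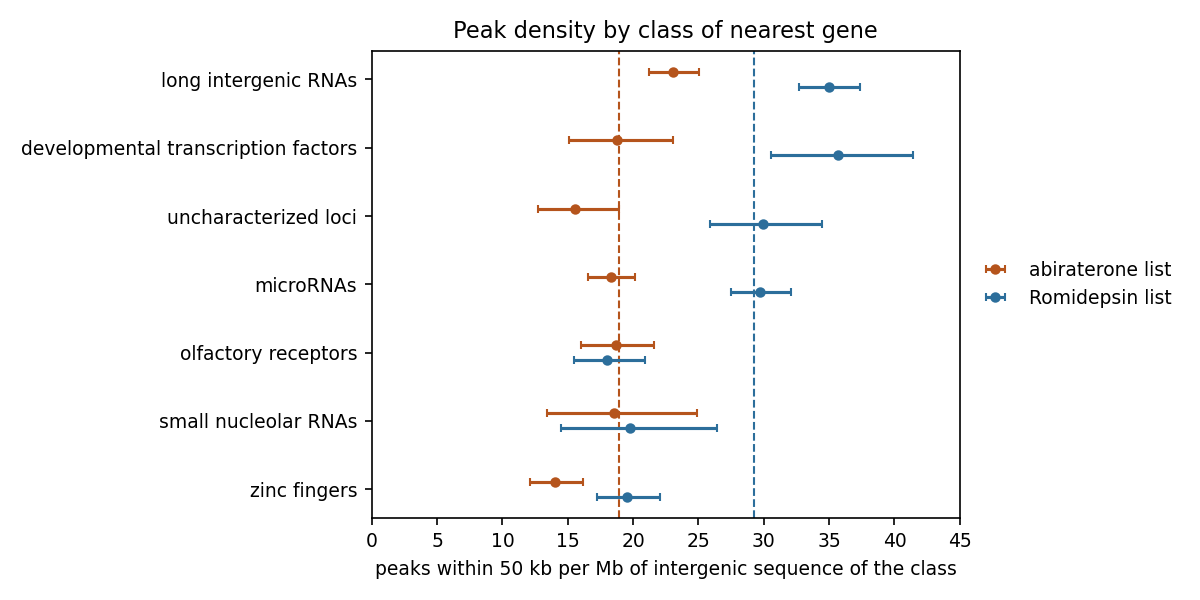
Peaks within 50 kb per Mb of intergenic sequence nearest to genes of each class (horizontal axis) for 7 classes of gene symbol (vertical axis), with exact Poisson 95% intervals. Dashed lines are the densities over all nearest genes, 18.9 for the abiraterone list in orange and 29.2 for the Romidepsin list in blue. The intervals of the lists overlap for olfactory receptors and small nucleolar RNAs and lie apart for the other 5 classes shown. Keratin-associated genes and defensins, with few peaks and overlapping intervals, are not drawn.

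Peaks spread over many genes. The abiraterone peaks had 5877 nearest genes and the Romidepsin peaks 8029. A single peak was found at 52.3% of the abiraterone genes and 47.7% of the Romidepsin genes, and 5 or more at 200 and 526 genes. The lists had 4062 nearest genes in common, which was 69.1% of the abiraterone genes and 50.6% of the Romidepsin genes, while 43.6% of all 18406 genes had a Romidepsin and 31.9% an abiraterone peak. These shares were not adjusted for sequence, and genes differ in it, with 3.2 kb within 50 kb for SREBF1 and 84.25 kb for INSIG1. They therefore do not show more sharing than the sequence near the genes would give. Among peaks with a −log10 q of 2 or more the shares of genes in common were 4.40% and 23.8%. That limit left only 2653 abiraterone and 407 Romidepsin peaks, so fewer genes could be shared. The matching shares of all genes were not computed, so these values do not show less sharing than in the full lists. At a shared gene the nearest peaks of the lists lay a median of 4440.5 bp apart, and they overlapped at 10.4% of shared genes.

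EN2, an engrailed homeobox gene of midbrain and cerebellum, had the most peaks of any gene within a list, 14 with Romidepsin and 4 with abiraterone. Its Romidepsin peaks lay on both sides, 8 upstream and 6 downstream, from 5900 to 47152 bp away, with folds over the control of 1.74 to 3.77. A −log10 q of 2 or more was reached by 0 of them and by 1 of the abiraterone peaks. The nearest Romidepsin peak was at chr7:155244227-155244924, upstream of the start. INSIG1, its neighbour on chromosome 7, had 10 Romidepsin peaks and 2 abiraterone peaks. Of the Romidepsin peaks 7 lay upstream, and the highest, at chr7:155059311-155059796, was 29690 bp upstream with a fold of 5.23. The abiraterone peaks lay at 48913 and 9794 bp upstream, with folds of 3.78 and 2.69. Together the peaks within 50 kb of all genes from 155 to 156 Mb of chromosome 7 numbered 32 with Romidepsin and 15 with abiraterone.

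HMX1, a homeobox gene of the eye and ear, had 10 Romidepsin peaks and 0 abiraterone peaks within 50 kb, and 1 intergenic abiraterone peak farther away. LMO2, a cofactor of blood cell development, had 11 and 1, and KLHL38, a kelch family gene, had 12 and 2. LINC01132 had 12 and 5, with its abiraterone peaks all upstream and 8 of its Romidepsin peaks downstream. RNU6-31P, a U6 small nuclear RNA pseudogene, had 11 and 7, but its identifier covered a locus on chromosome 14 and another on chromosome 1, with 5 and 6 of the Romidepsin peaks. Among the 8 genes with the most Romidepsin peaks, all had more of them than abiraterone peaks, which the choice by Romidepsin count favours. A −log10 q of 2 or more was reached by 1 Romidepsin peak at INSIG1, 1 at RNU6-31P and 0 at the others. Over all Romidepsin peaks within 50 kb the share was 2.47%.

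IER5, an immediate early response gene, was the only gene with 8 or more peaks in both lists. Its 8 abiraterone peaks all lay downstream, from 15725 to 47776 bp, and 11 of its 12 Romidepsin peaks did so too, from 3459 to 44929 bp. Of the abiraterone peaks 2 were overlapped, 1 of them at chr1:181084383-181084928. Abiraterone folds were 2.69 to 3.78 and Romidepsin folds 1.74 to 4.16. A −log10 q of 2 or more was reached by 3 of the abiraterone and 0 of the Romidepsin peaks. The stretch downstream of IER5 was thus rich in peaks under each agent, mostly at different positions.

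The gene with the densest abiraterone peaks among the 8 leading genes was PCSK6, a proprotein convertase, with 9 peaks in 47 kb of sequence. The gene is longer than 50 kb, so this sequence lies only upstream and its peaks could lie nowhere else. They lay from 14422 to 47411 bp before the start, and the Romidepsin list had 2 peaks there. TENT5C, a poly(A) polymerase, had 9 abiraterone and 6 Romidepsin peaks, the abiraterone peaks no closer than 36686 bp. Narrow neighbouring peaks were counted separately, so counts and densities per gene can exceed the number of distinct sites. Examples are chr1:118100732-118100858 and chr1:118101074-118101198 at TENT5C, and chr15:102047483-102047609 and chr15:102047844-102047968 at PCSK6. The Romidepsin list also held such neighbours, as at chr4:8883324-8883449 and chr4:8883710-8883834 near HMX1. The pseudogene RPS7P5 had 9 and 3, and the long RNA NAMA had 9 and 2. NEUROD6, a factor of neuronal differentiation, had 8 and 3, CLEC3A, a lectin of cartilage, had 8 and 5, and the uncharacterized gene C10orf120 had 8 and 5.

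**Figure D4:**
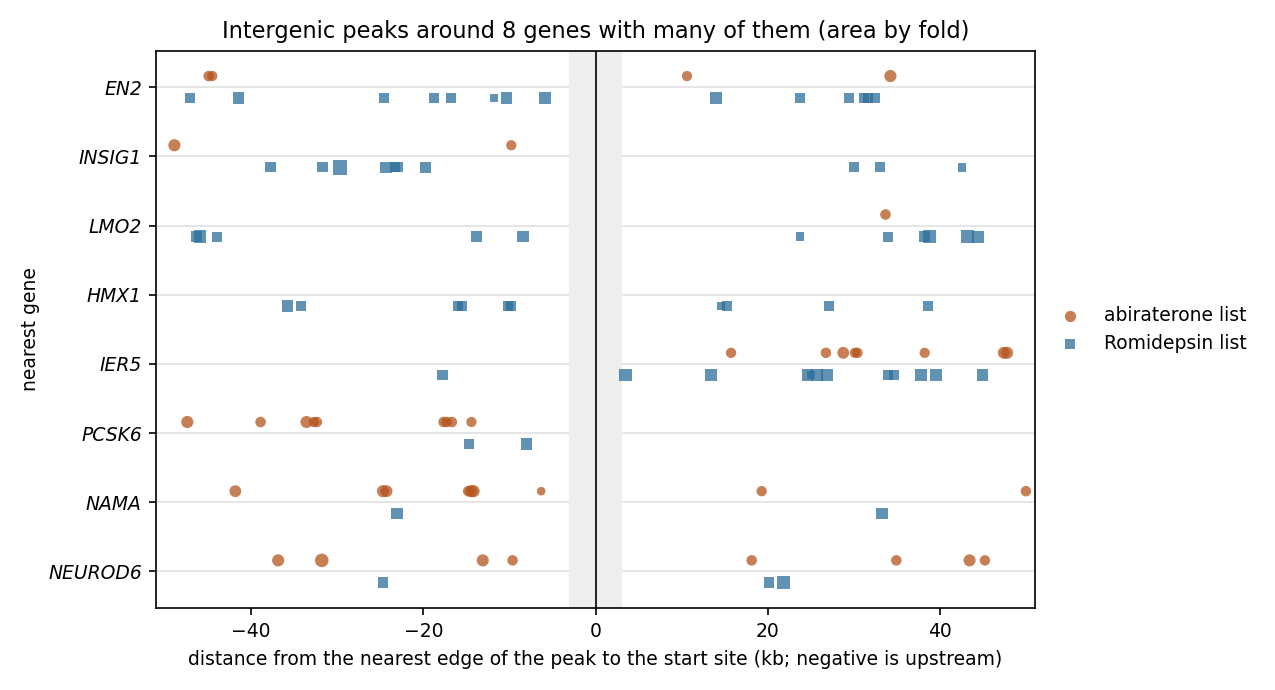
Distance from each intergenic peak to the start site in kb (horizontal axis, negative upstream) for 8 genes with many peaks (vertical axis). Orange circles are abiraterone peaks, blue squares Romidepsin peaks, symbol area grows with the fold over the control, and the grey band is the promoter, which the rule leaves out. Romidepsin peaks surround EN2, INSIG1, LMO2 and HMX1, peaks of both lists lie downstream of IER5, and 9 abiraterone peaks lie upstream of PCSK6, a gene too long to have intergenic sequence within 50 kb on the other side. Of the Romidepsin peaks at EN2, INSIG1, LMO2, HMX1 and IER5, only 1, at INSIG1, had a −log10 q of 2 or more. Of the abiraterone peaks at PCSK6, 2 did.

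Genes of the pathways the study dealt with had few peaks each. For sterol and fatty acid synthesis, 6 of 15 genes had an abiraterone peak and 7 a Romidepsin peak, 40.0% (16.3 to 67.7) and 46.7% (21.3 to 73.4), with 31.9% and 43.6% for all genes. INSIG1 gave 10 of their 19 Romidepsin peaks. SQLE, squalene epoxidase, had 2 peaks in each list, all upstream within 8448 bp. SREBF1, the sterol regulatory factor itself, had 1 Romidepsin peak 5383 bp upstream. Only 3.2 kb of intergenic sequence within 50 kb belonged to SREBF1, against 84.25 kb for INSIG1. The study reported the mark in exons of SREBF1, from sequencing of VCaP cells, and the rule leaves exons out. The count here therefore does not bear on that report. ME1, malic enzyme, had 4 and 3, and ELOVL6, a fatty acid elongase, had 2 and 0.

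Genes of androgen synthesis and removal had an abiraterone peak in 3 of 10 cases and a Romidepsin peak in 5. HSD3B1, a hydroxysteroid dehydrogenase needed for androgen synthesis, had the abiraterone peak of highest fold in the 4 lists, 7.60 at chr1:120011476-120011854, 37972 bp upstream. Its 2 Romidepsin peaks lay 27523 and 29473 bp upstream with folds of 2.58 and 1.74. SRD5A2, a 5-alpha-reductase that makes dihydrotestosterone, had 1 abiraterone and 4 Romidepsin peaks, and CYP11A1, the side-chain cleavage enzyme, had 2 and 3. The counts per gene were too small to separate the lists or the steps of androgen synthesis.

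Among 14 androgen-regulated and prostate genes, 9 had an abiraterone peak, 64.3% (35.1 to 87.2), and 8 a Romidepsin peak, 57.1% (28.9 to 82.3). The lower bounds were above the 31.9% of all genes for abiraterone and below the 43.6% for Romidepsin. The intervals of the lists overlapped widely, however, and 8 genes had a peak in both lists. Only ACPP, with an abiraterone peak alone, made the counts differ, so these genes did not separate the lists. The shares were not adjusted for the sequence near each gene. HOXB13, a prostate homeobox factor, had 3 abiraterone peaks and 1 Romidepsin peak. FOXA1, TMPRSS2 and SLC45A3 had 1 peak in each list, and TRPM8 and PMEPA1 had 1 and 3.

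Of 17 acetyltransferase and deacetylase genes, 6 had an abiraterone peak and 8 a Romidepsin peak, 35.3% (14.2 to 61.7) and 47.1% (22.98 to 72.2). The intervals held the 31.9% and 43.6% of all genes. CREBBP, an acetyltransferase and coactivator, had 3 and 4, KAT6B had 2 and 3, and HDAC4 had 1 and 2. HDAC7 had 2 Romidepsin peaks and 0 abiraterone peaks.

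The lists seldom marked the same position. Of the abiraterone peaks 474, 4.44% (4.06 to 4.85), shared at least 1 bp with any Romidepsin peak, and of the Romidepsin peaks 452, 2.74% (2.50 to 3.00), with any abiraterone peak. At 50 to 500 kb the shares were 3.79% (3.52 to 4.08) and 2.86%, and at promoters 5.27% (4.68 to 5.92) and 3.24%. Each share depends on how many peaks the other list holds nearby, which differs with distance as shown above. Wide peaks were overlapped more often, 10.7% (7.08 to 15.2) of abiraterone and 5.60% (3.75 to 7.99) of Romidepsin peaks of 800 bp or more.

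Peaks of the rule formed 477 overlapping pairs at 424 nearest genes. In all 477 the nearest gene was the same, which the overlap of the positions nearly fixes in advance. Of the pairs 325 lay upstream, the median stretch shared was 144 bp, and 5 pairs had a −log10 q of at least 2 in both lists. The pair with the highest lower fold lay 21861 bp downstream of the start of TGM2, transglutaminase 2, at chr20:36739848-36740301, with folds of 4.75 for abiraterone and 4.71 for Romidepsin. TCF7, a T cell factor of Wnt signalling, followed with 4.75 and 4.35, ZFPM2, a GATA cofactor, with 5.70 and 4.35, and XCL2, a chemokine, with 4.71 and 4.33. S100A2, a calcium-binding protein, had 3.80 and 4.30, with the abiraterone peak 3464 bp upstream. ANKRD33 and LINC00642 had 3.80 and 4.35, and at ANKRD33 a single Romidepsin peak at chr12:52290545-52291482 covered parts of 2 abiraterone peaks.

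The peaks of highest fold lay near genes of varied function. In the abiraterone list they lay near ZBTB14, a zinc finger repressor, with 14.1, and APOBEC1, a cytidine deaminase that edits RNA, with 13.4. LINC01973, SLC34A2, a phosphate transporter, and RSPH1, a radial spoke protein of cilia, each had 10.4. The peak near LINC01973 was 21 bp and that near RSPH1 386 bp from a Romidepsin peak, and the other 3 were at least 26658 bp from one. In the Romidepsin list they lay near YTHDC1, a nuclear reader of methylated RNA, with 9.58, AMER2, a Wnt pathway protein, with 9.51, and LINC00518 with 8.04. SLC47A1, an efflux transporter, and MIR365A each had 7.84. The peak at MIR365A, chr16:14411118-14411280, lay 7976 bp downstream and overlapped an abiraterone peak of fold 2.85 that began at 14411257. Thus 3 of the 10 peaks, those near LINC01973, RSPH1 and MIR365A, lay within 1 kb of a peak of the other list. Among all peaks near genes 11.96% of abiraterone and 7.239% of Romidepsin peaks did. Counts this small cannot show whether peaks of high fold lie closer to the other list than the rest. Each of these 10 peaks was 523 bp wide or less.

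Folds took few levels, so that medians were often the same value. The median fold was 2.83 in the abiraterone list, both within the rule and among all other peaks, and 2.61 in the Romidepsin list, in the same way. Folds were not normalized between the libraries, so they are compared only within a list. The median width was 334 bp against 340 bp for all other abiraterone peaks, and 351 bp against 348 bp with Romidepsin. The lower quartile of width was 130 bp within the rule against 172 bp among all other abiraterone peaks, and 223 bp in both groups of Romidepsin peaks.

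A −log10 q of at least 2, which is a q-value of 0.01 or less, was reached by 2653 abiraterone peaks, 24.9% (24.1 to 25.7), against 24.9% of all abiraterone peaks. With Romidepsin it was reached by 407, 2.47% (2.24 to 2.72), against 2.73% of all Romidepsin peaks. The q-values took few levels. In the abiraterone list 51.8% of the peaks within the rule had a −log10 q of 1.57, and in the Romidepsin list 52.3% had 0.717 and 8.68% had 1.96, just under the limit. With a minimum of 1.9 the Romidepsin share was 11.2% (10.7 to 11.7), against 11.6% of all Romidepsin peaks. The abiraterone share equalled that of its list, the Romidepsin interval ended just below 2.73%, and most peaks of either list did not reach a q-value of 0.01. The study's methods give that value as the limit for calling peaks, so most peaks used here lie outside the stated limit.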

How the data were processed

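C4-2B chromatin precipitated for H2A-K130ac, from 1 library each with abiraterone and Romidepsin, was deposited as narrow MACS2 peaks, with annotation by the authors. The lists are named as called over input, while the study's methods name the vehicle-treated sample as the control. The methods also give a q-value limit of 0.01 and broad regions, which these narrow lists do not follow. Deposited columns hold the fold over the control (a ratio), −log10 p and −log10 q, a score that is the whole part of 10 times −log10 p, and coordinates with the distance to the nearest start site. The labels name hg38, but the Romidepsin peaks on chromosome 1 reach 249191832 while the last gene of GRCh38.p14 there ends at 248937099, and 4.76% of 18266 genes start within 5 kb of their GRCh38 position. The coordinates were therefore read as hg19, and the reference gene table gave names and biotypes only (9798 of 9844 nearest genes matched). The annotated tables hold 1 peak fewer than the peak lists. Whether the duplicates named by the study were pooled is not given in the sources used here, and read depth is unknown. The VCaP libraries were not analysed here.

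Distances were recomputed and equalled the deposited ones for all 10667 and 16495 peaks. Intergenic sequence was measured on a 50 bp grid, outside the limits of 29513 transcripts, 3 kb around starts and 300 bp past ends, with possible assembly gaps included. Overlap was found with bedtools 2.31.1 (any shared bp). Shares have exact Clopper-Pearson and densities exact Poisson intervals (scipy 1.17.1), and the odds were pooled by the Mantel-Haenszel method. The density calculation was tested on simulated positions. The named genes were the 8 nearest genes with most peaks in each list, those of the 5 peaks of highest fold and of the 8 strongest overlapping pairs, and 4 gene lists, of which some genes are not reported here. Peaks, genes and lists were chosen with earlier results of these data known. NKX2-5, TBX15, IRX3, GATA5, LHX2, TBX3 and the microRNA genes were named after their values were seen. Alternatives covered q-value, fold, distance limit, summit, chromosomes, gene limits and overlap.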

Additional observations from a re-analysis of the deposited data

How the results depend on the processing

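No paired analysis was possible because there was 1 library per agent, and no replicate could be left out. Of 101 alternative values, 49 stayed within the interval of the reported value or within 1.5 times the count, 51 moved and 1 reversed. The abiraterone density within 50 kb over that at 50 to 500 kb reversed from 0.908 to 1.01 with the genes of 1 list alone, a setting chosen after seeing the data, in which fewer genes were counted. A minimum −log10 q of 2 left 2653 abiraterone and 407 Romidepsin peaks and turned the abiraterone share from 39.3% to 86.7%, so that the larger list changed. It moved the upstream shares to 71.5% and 74.7%, overlap to 0.188% and 0.983%, and shared genes to 4.40% and 23.8%. For Romidepsin it also moved the share within 10 kb to 21.9%, the median distance to 21373 bp and the density ratio to 1.01. A minimum of 1.9 moved the Romidepsin share passing to 11.2%. The 5000 peaks of highest fold left 820 and 895 peaks, with an abiraterone share of 47.8%, upstream shares of 72.7% and 72.7%, overlap of 0.244% and 0.223%, shared genes of 8.22% and 7.49%, a Romidepsin median distance of 21065 bp and odds of 0.788 against 50 to 500 kb. A limit of 25 kb left 6334 and 9941 peaks, 74.7% and 73.8% upstream, with 53.3% and 35.8% of genes shared. A limit of 100 kb took 16037 abiraterone peaks (the Romidepsin count, 24227, stayed within 1.5 times), with 66.3% and 65.6% upstream and 77.2% and 59.8% of genes shared. With 1 peak per gene and side the upstream shares were 69.0% and 67.5%, the shares within 10 kb 29.4% and 34.8% and the abiraterone share 41.4%. By the nearest gene limit instead of the start site, 50.4% and 50.9% lay on the upstream side, because every gene has 1 limit on each side. Sharing 50% of both peaks left overlap at 1.13% and 0.734%, and a gap of 1 kb raised it to 11.96% and 7.239%. Gene limits of 1 list alone moved the density ratios to 1.62 and 1.36 and the Romidepsin share in divergent gaps to 32.3%, with 33.3% of the sequence there. The odds were 0.895 within 5 Mb and 0.941 within 1 Mb, chosen after seeing the data, as were the other settings for the odds and the minimum of 1.9. Where no construction is named, the cause was not tested. Leaving out chromosomes 3 and X and measuring from the summit moved no value beyond its interval. The unknown read depth limits every count.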

Other observations

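Other windows of 1 Mb, ranked after the values were seen, also held many peaks within 50 kb of genes. The window with the most abiraterone peaks was 172 to 173 Mb of chromosome 5, with 25 abiraterone and 21 Romidepsin peaks, the nearest genes including NKX2-5, DUSP1, a dual-specificity phosphatase, and STC2, stanniocalcin 2. From 117 to 118 Mb of chromosome 9, around TNFSF15 and TNFSF8, both ligands of the tumour necrosis factor family, the counts were 23 and 8. The matrix metalloproteinase cluster at 102 to 103 Mb of chromosome 11 had 21 and 21. The window with the most Romidepsin peaks was 203 to 204 Mb of chromosome 1, with 34 against 10, near BTG2, an antiproliferative gene, and the matrix proteoglycan genes OPTC and PRELP. From 74 to 75 Mb of chromosome 4, which holds ALB, serum albumin, and the chemokine genes CXCL1, CXCL2 and CXCL8, the counts were 28 with Romidepsin and 8 with abiraterone.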
